A study of Mus musculus with 47 samples.

Results

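Neurons carry long noncoding RNAs at high levels, and 7 of them were looked for among single NPY-positive GABAergic interneurons of the mouse: Meg3, Malat1, Snhg11, Miat, Rian, Mirg and Neat1. Members were taken as the rows of the read count table that carried these symbols, and 1 of the 7, Snhg11, had a row among the 22800 rows. Snhg11 is therefore the gene described here, and Meg3, Malat1, Miat, Rian, Mirg and Neat1 were not analysed here. The table held 47 libraries, each labelled as the cytosol of 1 neuron drawn into a patch pipette from brain slices of mice aged 3 to 8 weeks. All mice carried an NPY reporter (NPY-hrGFP in the methods, NPY-EGFP in the series design), males and females were used, and the labels name no treatment. The labels put 20 NPY-positive cells in auditory cortex (AC), 21 in hippocampal area CA3, 3 in CA1 and 2 in the dentate gyrus (DG), with 1 NPY-negative cell from CA3. AC cells lay in the superficial layers and CA3 cells near stratum lacunosum-moleculare. The regions were set side by side in 10 AC cells (N3X, N4, N5, N7, N8, N41 to N44 and N46) and 13 CA3 cells (N26 to N34 and N37 to N40), with all other libraries given beside them.

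A label names the region of a cell but not its mouse, so each region counts as 1 sample and no test between regions was possible. Spreads are SDs over cells, given as a description, and intervals are exact 95% Poisson or Clopper-Pearson intervals that cover counting error only. The 23 cells held 1715012 to 7949918 reads on genes and 3163 to 8149 detected genes each. All 23 carried reads of Gad1, the GABA-synthesizing enzyme, and of Npy, the neuropeptide that the reporter follows, and their summed GABAergic markers reached 4376 to 26500 reads per 1000000 (CPM). In these cells the oligodendrocyte precursor markers stayed at or below 4.632 CPM and the endothelial markers at or below 33.66 CPM in sum. In the cell where each was highest, pyramidal cell markers reached 383.5 CPM, oligodendrocyte markers 955.1 CPM, astrocyte markers 3015 CPM and microglia markers 3707 CPM, and their part in any value of Snhg11 was not tested. Libraries N4 and N4X had log2 CPM values that correlated at 0.997, against at most 0.732 in the 399 other pairs from the same region, and were counted as 1 cell wherever both would enter.

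Snhg11 is a small nucleolar RNA host gene: its introns hold snoRNAs, and its spliced transcript is a polyadenylated RNA that is abundant in neurons and is used as a neuronal marker in single-cell data. Meg3, Rian and Mirg are transcribed from the maternal copy of one imprinted domain, Malat1 and Neat1 are nuclear RNAs tied to speckles and paraspeckles, and Miat is a nuclear RNA of neurons. Host gene transcripts are spliced in the nucleus, where the snoRNAs are released from the introns, while the spliced host RNA can leave for the cytosol.

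In GENCODE vM21 on GRCm38, the build of the count table, Snhg11 lies on chromosome 2 from 158375638 to 158386145 on the plus strand. GENCODE gives it 5 transcripts and the type protein_coding, whereas RefSeq calls it lncRNA. Snhg11-201 has 5 exons and 5864 bases, and its annotated coding frame spans positions 371 to 634 and encodes 87 residues before the stop. The other annotated forms are retained introns of 3156 and 687 bases and forms marked for nonsense-mediated decay of 786 and 1329 bases. A pair of snoRNA genes, Gm25187 and Gm25129, lies in intron 3 of Snhg11-201 on the same strand, and 0 annotated genes overlap Snhg11 on the other strand. Their bases are not part of the exons of Snhg11-201, but Gm25187 lies inside an exon of the 3156-base retained-intron form. Reads of the row therefore stand for the host RNA, on 8521 bases of merged exons, and the snoRNAs themselves had no row of their own in what was analysed. The sequences below, from GENCODE vM21 and written 5′ to 3′, are the short coding frame that one annotation gives this noncoding host, with its start and stop codons in capitals, and the snoRNAs that give the host its name, with their closing ACA triplet in capitals. The frame is shown spliced, from chr2:158376200-158380828, Gm25187 spans chr2:158378222-158378354 and Gm25129 spans chr2:158379534-158379666, all on the plus strand.
Snhg11-201 coding frame: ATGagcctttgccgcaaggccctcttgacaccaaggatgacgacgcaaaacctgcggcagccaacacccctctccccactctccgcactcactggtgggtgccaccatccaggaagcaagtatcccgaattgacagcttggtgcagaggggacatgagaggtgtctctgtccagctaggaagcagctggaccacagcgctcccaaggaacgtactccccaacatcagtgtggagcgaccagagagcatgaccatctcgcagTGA
Gm25187: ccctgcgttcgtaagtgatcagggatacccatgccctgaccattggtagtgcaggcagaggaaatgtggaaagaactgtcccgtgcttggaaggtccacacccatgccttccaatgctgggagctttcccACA
Gm25129: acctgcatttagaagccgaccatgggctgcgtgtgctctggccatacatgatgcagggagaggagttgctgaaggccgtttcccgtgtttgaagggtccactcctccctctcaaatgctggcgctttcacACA
The frame is 264 bases long with its stop codon, and both snoRNAs are 133 bases long and end on the triplet.

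**Figure D1:**
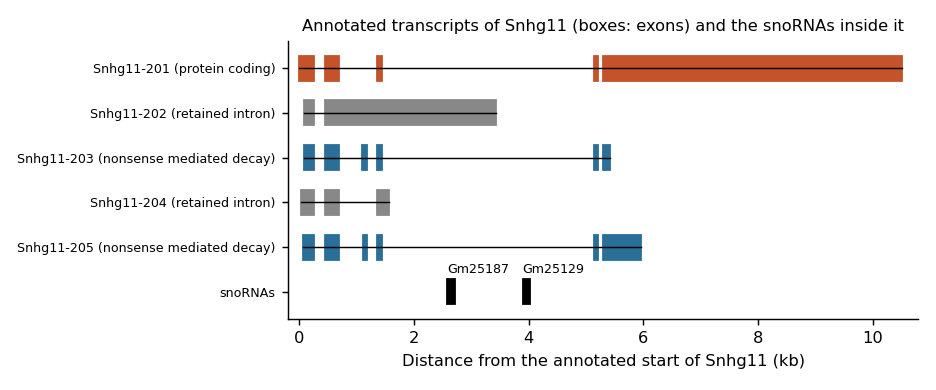
Annotated transcripts of Snhg11 (boxes are exons, lines are introns) and the snoRNAs inside it, drawn to scale as distance in kb from the annotated start. Snhg11-201 has 5 exons, and both snoRNAs sit in its intron 3.

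The type of the row matters, because the table holds mostly genes that GENCODE calls protein_coding: 20697 of its 22800 rows, with 95.33% of the reads of the 23 cells. Rows of the GENCODE long noncoding types numbered 145 of 10141 such symbols and held 0.0861% of the reads. Meg3 (chromosome 12, 109541001 to 109571726), Malat1 (chromosome 19, 5795690 to 5802672), Miat (chromosome 5, 112213228 to 112229395), Mirg (chromosome 12, 109729764 to 109749460) and Neat1 (chromosome 19, 5824708 to 5845478) are lincRNA in that annotation. Rian (chromosome 12, 109603940 to 109661716) is a processed_transcript. Of a further list of 45 long noncoding RNAs, 0 had a row. By RefSeq types 204 rows were lncRNA, out of 12731 such symbols. Of the 204 rows, 110 are protein_coding in GENCODE, and 68 had a read in the 23 cells. Snhg11 took 288672 of the 385211 reads on the 204 rows (74.9%), followed by 1500011B03Rik with 19580 reads and Gm28043 with 13188 reads. Most long noncoding RNAs had no row, so this is a share of the rows present and not of the long noncoding RNA of the cells.

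Snhg11 was read in every one of the 23 cells, 10 of 10 in AC (95% interval 69.2% to 100%) and 13 of 13 in CA3 (75.3% to 100%). Only 328 of the 5964 genes with reads in 10 or more of these cells (5.5%) had reads in all 23. In AC its level was 108.2 CPM in the lowest cell, 4428 CPM at the median and 14116 CPM in the highest. In CA3 it was 220.5 CPM in the lowest cell, 2778 CPM at the median and 8054 CPM in the highest. The ranges of the regions thus overlapped over most of their length.

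In AC, N42 (108.2 CPM, 415 reads) and N41 (426.9 CPM, 1866 reads) stood lowest and N7 (10591 CPM) and N3X (14116 CPM, 57266 reads) highest. Between them lay N8 at 1996 CPM, N46 at 3256 CPM, N43 at 3574 CPM, N44 at 5282 CPM, N5 at 8144 CPM and N4 at 8668 CPM. Neighbours in this order had Poisson intervals that did not touch, and the closest pair by ratio was N5 (8016 to 8274 CPM) and N4 (8529 to 8809 CPM). In CA3, N40 (220.5 CPM, 949 reads), N39 (498.9 CPM) and N34 (917.2 CPM) stood lowest. N26 (5533 CPM), N38 (5788 CPM) and N32 (8054 CPM, 25217 reads) stood highest. N37 and N28 could not be ordered, at 2728 to 2828 CPM and 2733 to 2868 CPM. Even the lowest count, 415 reads, lay far above the 3 reads used as the limit of a 0.

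**Figure D2:**
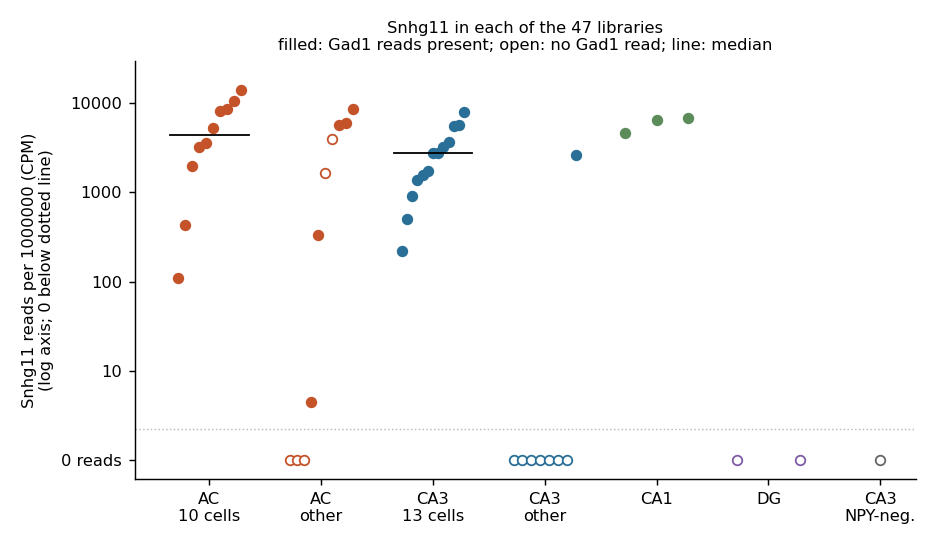
Snhg11 in each of the 47 libraries, in CPM on a log axis, with libraries of 0 reads drawn below the dotted line. Filled points have Gad1 reads, open points have none, and the lines mark the medians of 4428 CPM in the 10 AC cells and 2778 CPM in the 13 CA3 cells.

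Summed over cells, Snhg11 had 165319 reads in AC, or 4855 CPM (4831 to 4878), and 123353 reads in CA3, or 2525 CPM (2511 to 2539). These narrow intervals leave out the spread over cells, which was far wider: 5616 ± 4630 CPM in AC (SD, n = 10 cells) and 2940 ± 2326 CPM in CA3 (SD, n = 13 cells). The SD was 82.4% of the mean CPM in AC and 79.1% in CA3. Snhg11 took on average 0.562% of the reads of an AC cell and 0.294% of those of a CA3 cell.

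Levels of different genes were compared per length, as reads per kilobase of merged exon scaled to 1000000 over the 21906 rows with a length (TPM in what follows). On that scale Snhg11 stood at a median of 2074 TPM in AC (44.64 to 7801) and 976.5 TPM in CA3 (89.16 to 3273). By its mean over the 23 cells it ranked 41 of 21906. Its rank within a cell ran from 3 (N7) to 1970 (N42) in AC, with a median of 46, and from 14 (N32) to 2330 (N40) in CA3, with a median of 196. It was among the 100 highest genes in 7 of 10 AC cells and 5 of 13 CA3 cells.

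**Figure D3:**
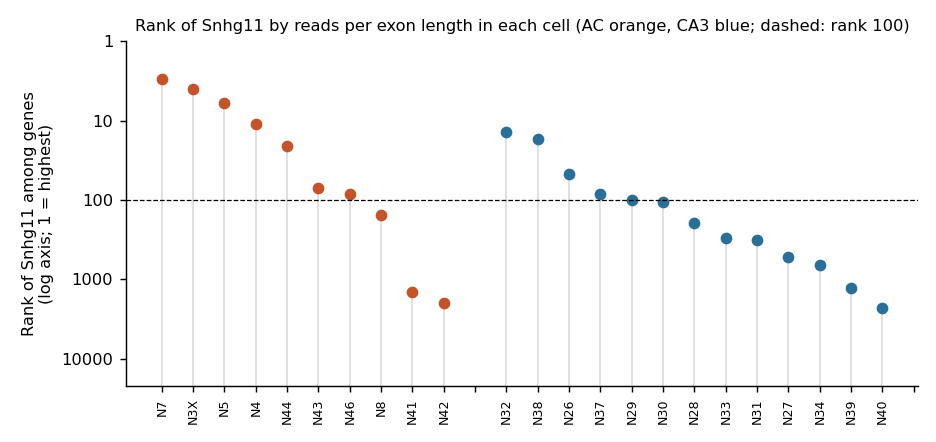
Rank of Snhg11 among the 21906 rows with a length, by reads per exon length in each of the 23 cells, on a log axis with rank 1 at the top. The dashed line is rank 100, which 7 AC and 5 CA3 cells reached or passed.

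Per length, Snhg11 stood below each gene that defines these cells in most of the 23 cells, and above it in some. It exceeded Gad2, the other GABA-synthesizing enzyme, per length in 6 of 10 AC cells and 5 of 13 CA3 cells, and Gad1 in 4 and 2 cells. It exceeded Snap25, a SNARE protein of synaptic vesicle fusion, in 5 AC and 3 CA3 cells and Actb, the cytoskeletal actin, in 8 and 7. Npy stood above Snhg11 in all AC cells and in all CA3 cells but 1. The exon length of Snhg11 sums retained introns too, and the lengths of all other genes were merged in the same way. With the longest transcript of each gene as its length, the mean of Snhg11 was 3061 TPM in AC and 1290 TPM in CA3. Either mean moved by less than the SD over cells from that on merged lengths.

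The question between regions was whether Snhg11 differs between neocortical and hippocampal NPY-positive cells. Levels on the log2 scale, log2(read count over the scran size factor + 1), were 13.53 ± 1.90 in AC (SD, n = 10) and 12.77 ± 1.38 in CA3 (SD, n = 13). They ran from 9.38 to 15.35 in AC, with a median of 14.08, and from 9.99 to 14.39 in CA3, with a median of 12.99. Snhg11 was thus 0.75 higher in AC on this scale, smaller than the SD of either region and smaller than the difference of 1 that is spoken of as called. In AC 4 cells lay above the highest CA3 cell, 1 AC cell lay below the lowest CA3 cell, and 2 CA3 cells lay above the AC median.

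The background of all genes leaned the other way, by an amount that turned on the processing. Over the 5964 genes tested the median of AC minus CA3 was -0.84, and 32.1% of genes were higher in AC. That median was -0.46 with a pseudocount of 10, -1.23 with a pseudocount of 0.1 and -0.09 from summed CPM. By the difference of 1, 16.6% of these genes were called higher in AC and 46.9% higher in CA3, and Snhg11 was in neither set. Relative to the median of all genes Snhg11 was 1.59 higher in AC, past the difference of 1 as were 29.3% of genes, and 19.9% of genes had a larger value of AC minus CA3. This relative value was 1.21 with a pseudocount of 10, 1.98 with 0.1 and 1.04 from summed CPM. The difference of Snhg11 itself was 0.75 with either pseudocount, so the relative value moved with the other genes there. Leaving out N42 moved the difference from 0.75 to 1.23 and leaving out N41 moved it to 1.01. Leaving out N3X moved it to 0.50 and leaving out N40 to 0.52. With medians in place of means over the cells the difference was 1.09. Whether it reached the size of 1 thus turned on single cells and on the summary used, while Snhg11 was higher in AC in all 23 of the repeats with a cell left out. When every labelled cell entered (19 AC, 21 CA3), scaled by library size, Snhg11 was 2.06 higher in AC, against 0.58 for the 23 cells on that scaling, and the libraries of 0 reads described further on then counted too.

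**Figure D4:**
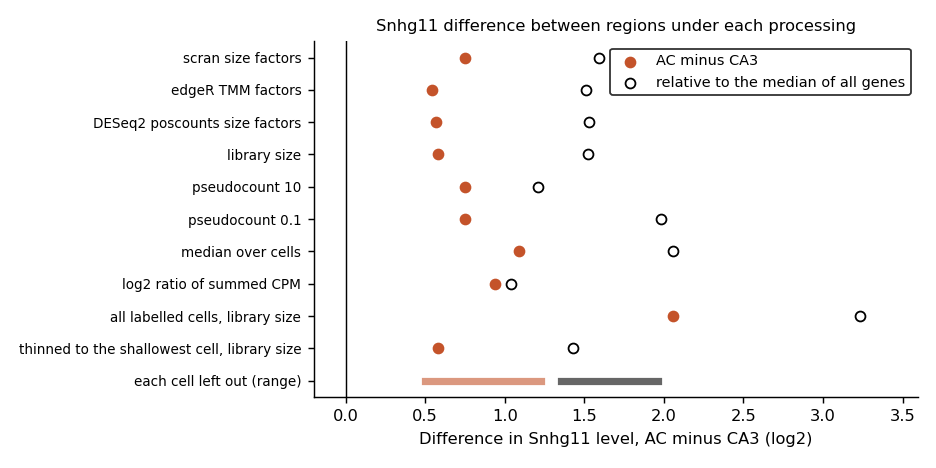
Difference of the mean Snhg11 level, AC minus CA3 on the log2 scale, under each processing. Filled points are the difference itself, 0.75 with scran size factors, open points are relative to the median of all genes, 1.59 with scran size factors, and bars span the values with each of the 23 cells left out.

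Depth moved with the level of Snhg11. Across the 23 cells its CPM had a Spearman rho of -0.61 with the total reads of the cell, -0.52 within AC and -0.61 within CA3, and the part of depth in the values was not tested. N39, the deepest library with 7949918 reads, stood at 498.9 CPM, and N4, the shallowest with 1715012 reads, at 8668 CPM. With library size in place of scran factors the difference between regions was 0.58, and it was 0.58 on the same scaling once each cell was thinned to 1715012 reads. Random thinning leaves the CPM of a gene with this many reads nearly unchanged, so that repeat could not address the rho with depth. The rho with the number of detected genes was 0.26, and with the summed CPM of the mitochondrial genome it was -0.22.

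Among the 1214 genes with reads in 20 or more cells, the log2 levels most like that of Snhg11 were those of Rbm5, Kif1a and Tacc1. Rbm5, an RNA-binding protein of splicing, had a rho of 0.71, with 0.83 within AC and 0.36 within CA3. Kif1a, a motor of axonal vesicle transport, had 0.70, with 0.58 and 0.65, and Tacc1, a coiled-coil protein, had 0.69, with 0.35 and 0.62. These are rho values over cells that share depth and size factors. The median rho over the 1214 genes was -0.21, and 16 of them lay above 0.5 and 183 below -0.5. Rbm5 had 0 reads in 3 of the 23 cells, N41, N42 and N40, which also stood lowest in Snhg11 in their regions.

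At the other end stood Ndufs7, a subunit of respiratory complex I, with a rho of -0.85, Snap25 with -0.79 and Capza2, an actin capping subunit, with -0.79. Gad1 had -0.63, with -0.81 within AC and -0.71 within CA3. N42 and N40, the cells lowest in Snhg11 in their regions, were not low in Gad1. N42 had 13467 CPM of Gad1 and 8751 CPM of Npy, and N40 had 13031 CPM of Gad1. N7, with 10591 CPM of Snhg11, had 740.3 CPM of Gad1 and 875.2 CPM of Snap25. For Npy the rho was -0.17 over the 23 cells, -0.79 within AC and -0.23 within CA3, and the difference between these was not tested.

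**Figure D5:**
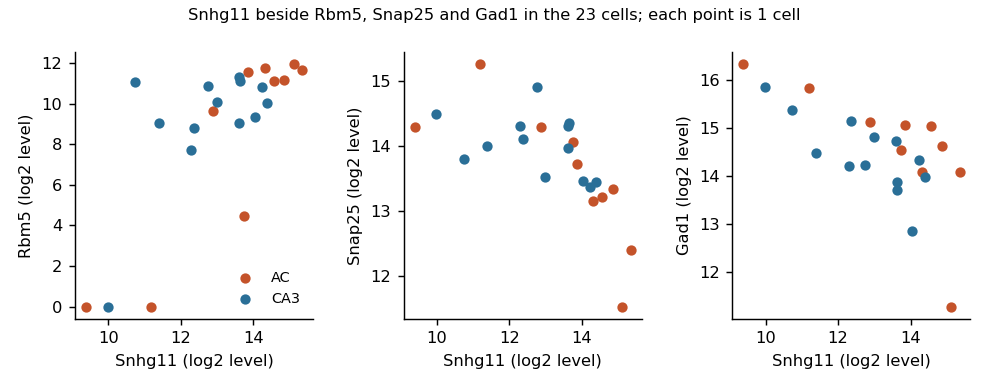
Log2 levels of Rbm5, Snap25 and Gad1 against that of Snhg11, each point 1 of the 23 cells, AC in orange and CA3 in blue. Rbm5 is at 0 in the 3 cells described in the text and had a rho of 0.71, and Snap25 and Gad1 fall with rho values of -0.79 and -0.63.

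Gene groups around the biology of these RNAs were laid beside Snhg11 with lists chosen when earlier results of these data were known. Over all genes tested, the shares called were 16.6% higher in AC and 46.9% higher in CA3, and each count stands beside them. In and beside the imprinted domain of chromosome 12 that holds Meg3, Rian and Mirg, 5 of 6 protein-coding genes and neighbours had a row. Of those, 2 were read in at least 10 cells, and both lie outside the stretch from Meg3 to Mirg. Begain (109032187 to 109068217) lies before Meg3 and was not called (-0.13). Ppp2r5c (110447120 to 110583062), a regulatory subunit of protein phosphatase 2A, lies past Mirg. It was 1.20 higher in AC, with a median of 142.3 CPM against 23.7 CPM in CA3. That call was lost with all labelled cells and when any of N3X, N4, N7, N8, N42, N46, N29, N30, N31 or N38 was left out.

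Of 15 other imprinted genes that could be compared, 2 were called higher in AC (Peg3, 1.57, and Grb10, 1.31) and 7 higher in CA3, near the shares over all genes, with a median of -0.80 against -0.84. With all labelled cells the counts were 1 and 12, and the AC count was 1 with a pseudocount of 10 and without N8, N26, N28, N30 or N40. Nap1l5, a nucleosome assembly protein, was among those higher in CA3, with a median of 781.5 CPM in AC and 2442 CPM in CA3.

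Of 11 paraspeckle proteins, the partners of Neat1, 3 were called higher in AC and 4 higher in CA3, with a median of 0.22. The AC count was 5 without N41 or without N42, and with all labelled cells 0 were higher in AC and 7 in CA3. Those higher in CA3 were Nono (-2.85), Hnrnph3 (-2.41), Tardbp (-2.22) and Cpsf6. Nono, a core paraspeckle protein, was read in 6 AC and 11 CA3 cells.

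Of 16 nuclear speckle and splicing proteins, the neighbours of Malat1, 4 were called higher in AC and 1 higher in CA3, also with a median of 0.22. Srsf11 (3.36), Srrm2 (2.40), Srsf7 (1.22) and Srsf2 (1.08) stood higher in AC, and Qk (-3.03) stood higher in CA3. The direction of these counts turned with medians in place of means over the 23 cells, to 2 higher in AC and 3 in CA3, and with all labelled cells, to 1 and 9. The CA3 count was 3 with a pseudocount of 0.1. The AC count was 2 without N27, and the CA3 count was 2 when any cell but N31, N32, N33, N34, N38, N39 or N40 was left out. Their summed CPM had a rho of 0.60 with Snhg11, and 5 of the 10 of them among the 1214 genes had a rho above 0, against 25.3% of all 1214.

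Of 15 genes of the mitochondrial genome 0 were called higher in AC and 11 higher in CA3, with a median of -1.14, and the CA3 count was 7 without N44 or without N28. Of 8 immediate early genes, which neurons switch on with activity, 7 were called higher in AC and 0 higher in CA3, with a median of 3.17. Fos, the best known of them, had a median of 1280 CPM in AC and 528.4 CPM in CA3. Microglia, astrocyte and pyramidal cell markers were also higher in AC by their summed medians. Oligodendrocyte markers stood at a median of 0 CPM in AC and 7.413 CPM in CA3 and oligodendrocyte precursor markers at 0 in both. The part of these in the values was not tested. The 6 microglia markers summed to a median of 205.2 CPM in AC (0 to 3707) and 84.3 CPM in CA3 (0 to 1864), and the 7 astrocyte markers to 217.5 CPM (0.2465 to 3015) and 37.91 CPM (0 to 659.6). Of the 3 microglia markers read in at least 10 cells, C1qb was called higher in AC (3.00), while C1qa (0.75) and Csf1r (0.35) were not called. That count of 1 went to 0 without N5, N41, N42, N46 or N32, and to 2 with medians over the cells and without N3X, N7, N43, N28 or N39. The 1 astrocyte marker read in as many cells, Slc1a2, was not called (0.17). The 6 pyramidal cell markers summed to a median of 67.8 CPM in AC (0.2288 to 189.7) and 9.295 CPM in CA3 (0 to 383.5). The 1 of them read in as many cells, Camk2a, was called higher in AC (1.22). That call was lost with a pseudocount of 10 and without, for example, N3X, N4, N42 or N44. Of 6 general neuron markers, 0 were called higher in AC and 3 higher in CA3 (Tubb3, Stmn2 and Thy1), with a median of -0.81, near the values over all genes.

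The chromosomal neighbours of Snhg11 were near or at 0. Ralgapb, a subunit of a Ral GTPase-activating complex, starts 23703 bp downstream on the same strand and was read in 15 of the 23 cells, with a median of 4.81 CPM and at most 373 CPM. Lbp, Bpi and Adig, the next genes with a row, had reads in 0 of the 23 cells. The level of Snhg11 was therefore not shared by the genes beside it.

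Outside the 23 cells, all 9 libraries with Gad1 reads also had Snhg11 reads, although N9 had 1 read of Snhg11 in 222814 reads. The 3 CA1 cells stood at 4636, 6519 and 6835 CPM and summed to 6260 CPM (6191 to 6329), and ranked Snhg11 28, 14 and 8 per length. Of the 15 libraries without Gad1 reads (5 labelled AC, 7 CA3, 2 DG and the NPY-negative CA3 cell), 13 had 0 reads of Snhg11. Their totals were 40934 to 527997 reads, so that 0 reads allowed up to 5.682 CPM in the deepest and 73.29 CPM in the shallowest. None of these 13 libraries had a read on any of the 4 GABAergic markers, and 3 had a read of Snap25. In sum over each marker list, general neuron genes reached 3315 CPM and pyramidal cell genes 2352 CPM, each with reads in 8 of the 13 libraries. Astrocyte genes reached 37762 CPM with reads in 11. Oligodendrocyte genes reached 177000 CPM with reads in 10, and oligodendrocyte precursor genes reached 10822 CPM with reads in 11. The labels call 12 of these 13 cells NPY-positive neurons, and their defining markers were at 0.

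The remaining 2 libraries without Gad1 reads did carry Snhg11. N48 had 20296 reads of it, or 3952 CPM, with 477.7 CPM of Npy and 140.8 CPM of Snap25. N49 had 988 reads, or 1658 CPM, with 3856 CPM of Snap25, 0 reads of Npy and 14899 CPM on 1 of the 6 pyramidal cell markers, the other 5 being at 0. In the labelled libraries as a whole, a read of Snhg11 was found in 16 of 19 AC cells (84.2%, 60.4% to 96.6%) and 14 of 21 CA3 cells (66.7%, 43% to 85.4%). These sets include the libraries without Gad1 reads, 5 in AC and 7 in CA3, and their part in the shares was not tested.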

How the data were processed

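Cytosol was collected with the patch pipette, and the 47 libraries, each labelled as 1 neuron, were made with Nextera XT. Raw read counts per gene symbol, without normalization, were deposited as 1 table. Reads were trimmed with Trimmomatic and Flexbar and aligned with STAR to GRCm38. The paper names HTSeq as the counter and the processing notes of the submitters name featureCounts. Counts of identifiers that share a symbol were averaged by the authors. The kit keeps no strand, and reads of overlapping genes could not be told apart by strand.

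Groups came from the labels. The 23 cells were those that an earlier processing had matched to the cells that the paper kept, 10 of 10 in AC but 13 of 20 in CA3, which was not repeated here, and the members and gene lists were chosen with earlier results of these data known. No label names the animal of a cell, so each region was taken as 1 sample and no test was run. CPM is the count per 1000000 reads of the cell. Log2 levels used scran 1.30.0 size factors (pools of 10 and 20, R 4.3.3) and a pseudocount of 1, over genes read in at least 10 cells. Alternatives were TMM of edgeR 4.0.16, DESeq2 1.42.0 poscounts factors, library size, pseudocounts of 10 and 0.1, medians, summed CPM, thinning (seed 1), all labelled cells and each cell left out. The depth was 1715012 to 7949918 reads in the 23 cells and at least 40934 in any library. Computation of the differences was tested on simulated data. Remaining computation was done in Python 3.11.15 (pandas 2.3.3, numpy 2.4.6, scipy 1.17.1, matplotlib 3.10.9).

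Exon lengths and coordinates came from GENCODE vM21, matched by symbol, with 894 symbols unmatched, and types also from RefSeq. Genes named by rule were the members, the 3 genes most like a member by Spearman rho, and in each list the 3 highest genes and the 2 with the largest differences. Of these, those that a result turns on are printed. Some genes of the lists are not reported here by name. The lowest 3 of the likeness order, the marker genes beside Snhg11, list genes outside that rule, its neighbours and the next noncoding rows were named after their values were seen.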

Additional observations from a re-analysis of the deposited data

Results flagged for a closer look

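Libraries outside the 23 cells also held Snhg11 reads, in data that no comparison between the regions with a fixed set of cells used, above the limit that a count of 0 allows. In CA1, N1 had 6519 CPM, N2X had 6835 CPM and N6 had 4636 CPM. In CA3, N36 had 2667 CPM. In AC, N45 had 329.9 CPM, N47 had 6065 CPM, N51 had 5670 CPM and N4X, which repeats N4, had 8559 CPM (8458 to 8660) against 8668 CPM (8529 to 8809) in N4. N48, at 3952 CPM, and N49, at 1658 CPM, had Snhg11 reads without Gad1 reads.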

How the results depend on the processing

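Snhg11 stayed higher in AC than in CA3 under all 9 other ways of processing and with each of the 23 cells left out. The difference was 0.54 with TMM, 0.57 with DESeq2 factors, 0.58 by library size, 0.94 from summed CPM, 1.09 between medians and 2.06 with all labelled cells by library size, and it ran from 0.50 (without N3X) to 1.23 (without N42) over the cells left out. Relative to all genes it ran from 1.04 to 3.23, the last with all labelled cells, and from 1.35 to 1.96 over the cells left out. The median of all genes was -0.84, -0.97 with TMM and -0.09 from summed CPM. Genes called higher in AC numbered 989, 518 with all labelled cells and 1976 without a filter on reads, and 876 to 1100 over the cells left out. Those called higher in CA3 numbered 2798, 4393 without a filter, and 2496 to 2814. The share of CA3 cells with a read was 100%, and 66.7% with all labelled cells. Shares without Malat1 or without Meg3 and the likeness between members could not be given, since Snhg11 alone had a row. No paired analysis was possible because the replicate numbers only count cells in order and no label names the mouse. Depth limits the libraries with 0 reads, where up to 73.29 CPM could be missed.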
